A study of Homo sapiens with 6 samples.

Results

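Oxidative phosphorylation is the process by which mitochondria burn fuel to make ATP. Complexes I and II take electrons from NADH and succinate, complex III passes them to cytochrome c, complex IV hands them to oxygen, and complex V (ATP synthase) uses the resulting proton gradient to make ATP. The complexes are built mostly from subunits encoded in the nucleus, a few catalytic subunits are encoded by mitochondrial DNA, and assembly factors put them together without staying in the finished enzyme. The genes described here are those of the nuclear subunits and of assembly factors with related names. They were chosen by symbol (NDUFA, NDUFB, NDUFC, NDUFS, NDUFV, SDHA to SDHD, UQCR, ATP5 and COX followed by a digit, with CYC1 and CYCS), which took 107 of the 16200 genes in the table. No gene with an MT- symbol stood in the table, so the mitochondrially encoded subunits were not analysed here.

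RNA came from RBE, an established human cholangiocarcinoma (bile duct cancer) line, in 3 libraries labelled NC and 3 labelled sgKCNQ3, named for a guide against the potassium channel gene KCNQ3. No clone, dose or time is named for either group, the type of Cas protein used is likewise not stated here, and nothing says that the replicates were separate cultures, so p-values measure the spread between these libraries, which may be technical. Poly(A) RNA was fragmented and copied with random primers. KCNQ3 itself was lower in all 3 sgKCNQ3 libraries (16.3 ± 0.25 against 12.99 ± 1.0 CPM, mean ± SD, n = 3). Its log2 fold change was -0.33 (SE 0.084, edgeR adjusted p = 0.0045). CPM is a count scaled to a common library size after TMM scaling, which sets libraries level on the bulk of their genes. TPM is the level per length of transcript and is used wherever genes are compared with each other.

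Total counts per library ranged from 15601283 to 16089500. All 7 cholangiocyte markers passed the filter on low counts, and their summed TPM ran from 3992 to 4086 in the NC libraries and from 4614 to 4734 in the sgKCNQ3 libraries, although CDH1 was near the lowest levels tested (0.76 and 1.46 TPM). Summed leukocyte, fibroblast and endothelial markers stayed at or under 2.83 TPM in every library, with PTPRC, COL1A2 and PECAM1 under 1 TPM. Hepatocyte markers summed to 73.0 to 74.9 TPM in NC and 76.0 to 85.5 TPM in sgKCNQ3, nearly all from SERPINA1, with ALB under 1 TPM. In bulk RNA, fewer cells of a type and less RNA per cell cannot be told apart.

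The OXPHOS genes were a steady and abundant set. They took 1.05%, 1.06% and 1.06% of counts in the NC libraries and 1.04%, 1.07% and 1.03% in the sgKCNQ3 libraries, so the groups overlapped. Of TPM they took 2.96% to 3.03% in NC libraries and 2.97% to 2.98% in sgKCNQ3 libraries. In NC, 69 of the 107 genes had a mean above 100 TPM and 7 a mean under 10 TPM. By length, the highest was COX8A, a small nuclear subunit of complex IV, with 1862 TPM in NC and 1703 TPM in sgKCNQ3. Complex II was the most even, from 109.8 TPM (SDHB) to 136 TPM (SDHC) in NC. Complex I spanned 17.2 TPM (NDUFV3) to 615 TPM (NDUFB9), complex III 23.7 TPM (UQCRB) to 752 TPM (UQCRH), complex V 60.4 TPM (ATP5F1E) to 1696 TPM (ATP5ME), and assembly factors 7.22 TPM (NDUFAF7) to 289 TPM (NDUFAF8). Levels at both ends rest on the lengths the deposited values imply, which were 40.9 bases for ATP5ME and 50 for NDUFB1 but 8167 for UQCRB and 11360 for NDUFS1.

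**Figure D1:**
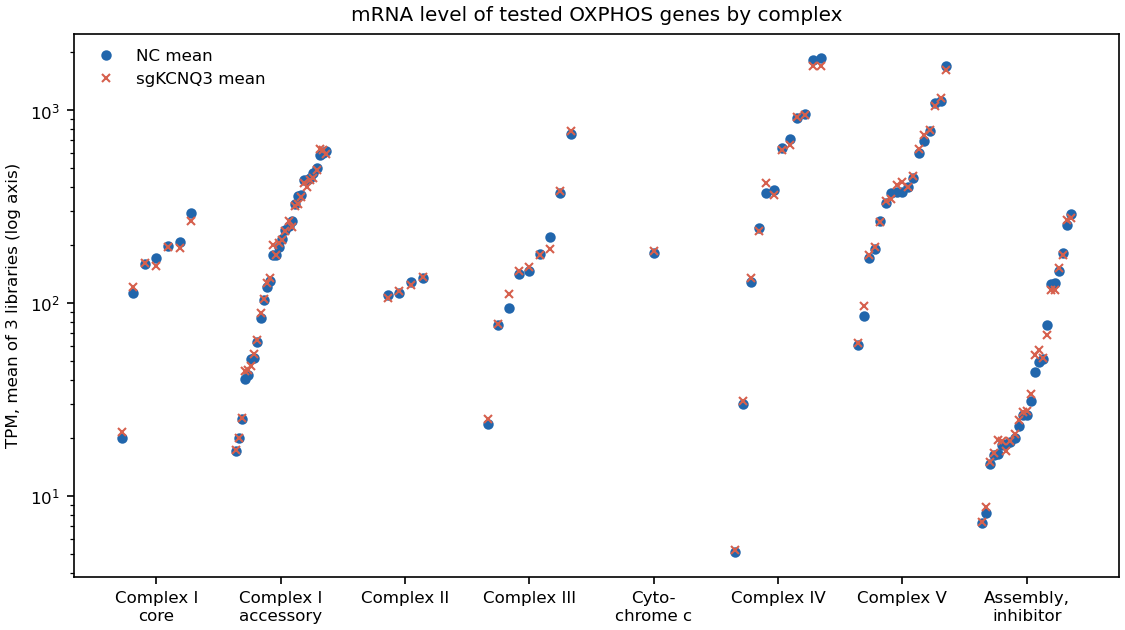
Mean TPM of 3 libraries (log axis) for each tested gene, by complex, ordered by the NC level within a complex; circles are NC and crosses sgKCNQ3. COX8A (1862 and 1703 TPM) tops the plot, the 4 complex II genes lie within 107 to 136 TPM, and crosses sit close to circles throughout.

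Of the 107 genes, 104 passed the filter on low counts and 12 of them (11.5%) were lower in sgKCNQ3 at an adjusted p under 0.05, with 0 higher. Over all 12565 genes tested, 29.1% were called, 15.1% lower and 14.0% higher, so the share called lower was a little under the background and no OXPHOS gene was among the risers. At an unadjusted p under 0.05, edgeR gave 16 lower and 6 higher. DESeq2 called 8 lower and 0 higher, and limma-voom 13 lower and 1 higher, the last being the readthrough NDUFC2-KCTD14, which has few counts and shares reads with NDUFC2. The median log2 fold change of the 104 genes was -0.04, against -0.0074 for all genes. Below zero lay 73 of the 104, beside 6475 of all 12565. With library size alone the members' median was -0.0047 and on log2(TPM + 1) it was 0.028. On log2(TPM + 1), 41 of 104 lay below zero, beside 4207 of all 12565. The median of all genes moved too, to 0.029 and 0.065. The members' median less that of all genes was -0.033 with TMM, -0.033 with library size alone and -0.037 on log2(TPM + 1). A scale factor per library shifts all genes nearly alike, so other scaling could barely change this gap. With trends over implied length and GC content removed, as described below, the medians were -0.012 for members and -0.013 for all genes. With the implied length trend alone removed they were 0.0047 and -0.012. Calls split as 10 lower and 3 higher with upper quartile factors, 4 and 6 with library size alone, and 2 and 4 on log2(TPM + 1). The 12 became 6 without NC replicate 2 and 5 without NC replicate 3, and the 0 higher became 5 without sgKCNQ3 replicate 3.

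By complex, the median log2 fold change less that of all genes was -0.079 with TMM for the 7 complex I core subunits (-0.086 on log2(TPM + 1)) and -0.049 for the 30 accessory subunits (-0.060). It was -0.073 for complex II (-0.080), -0.0095 for complex III (-0.014), -0.081 for complex IV (-0.087) and -0.027 for complex V (-0.025). The assembly factors and inhibitor lay at -0.012 (-0.011). Set against zero rather than all genes, the medians of the accessory subunits, complexes III and V and the assembly factors turned positive on log2(TPM + 1). With implied length and GC trends removed, the median of all genes was -0.013. Medians were then -0.061 for core subunits, -0.016 for accessory subunits, -0.031 for complex II and -0.054 for complex IV. They were 0.016 for complex III, 0.0019 for complex V and 0.0032 for the assembly factors and inhibitor.

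The changes were small and tightly bounded. For 77 of the 104 genes (74.0%) the whole 95% interval of the log2 fold change lay within 0.25 of zero on either side. The share over all genes tested was 43.7%. It was 75.6% for mitochondrial and 69.3% for cytosolic ribosomal proteins, 72.2% for citric acid cycle enzymes and 71.4% for carriers and electron feeders. The OXPHOS genes had a higher median CPM than all genes (68.3 against 31.5) and a smaller median SE (0.054 against 0.066). Groups did not overlap in CPM for 12 genes that were lower (21.3% of all genes tested were so) and 3 that were higher (20.4%). Summed over the tested OXPHOS genes, CPM came to 10643, 10768 and 10689 in the NC libraries against 10295, 10639 and 10127 in the sgKCNQ3 libraries. The difference in means was -3.24%, beside -2.48% for the sum over all genes tested. The latter is set by the TMM factors alone and is no measure of expression, and the CPM sums given below use the same factors. In the OXPHOS sum the highest sgKCNQ3 library, replicate 2, lay just under the lowest NC library. Within sgKCNQ3 the members of replicates 2 and 3 lay a median of 0.115 and 0.12 log2 units from the mean of the other two libraries, against 0.058 for replicate 1 and 0.05 to 0.072 in NC.

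**Figure D2:**
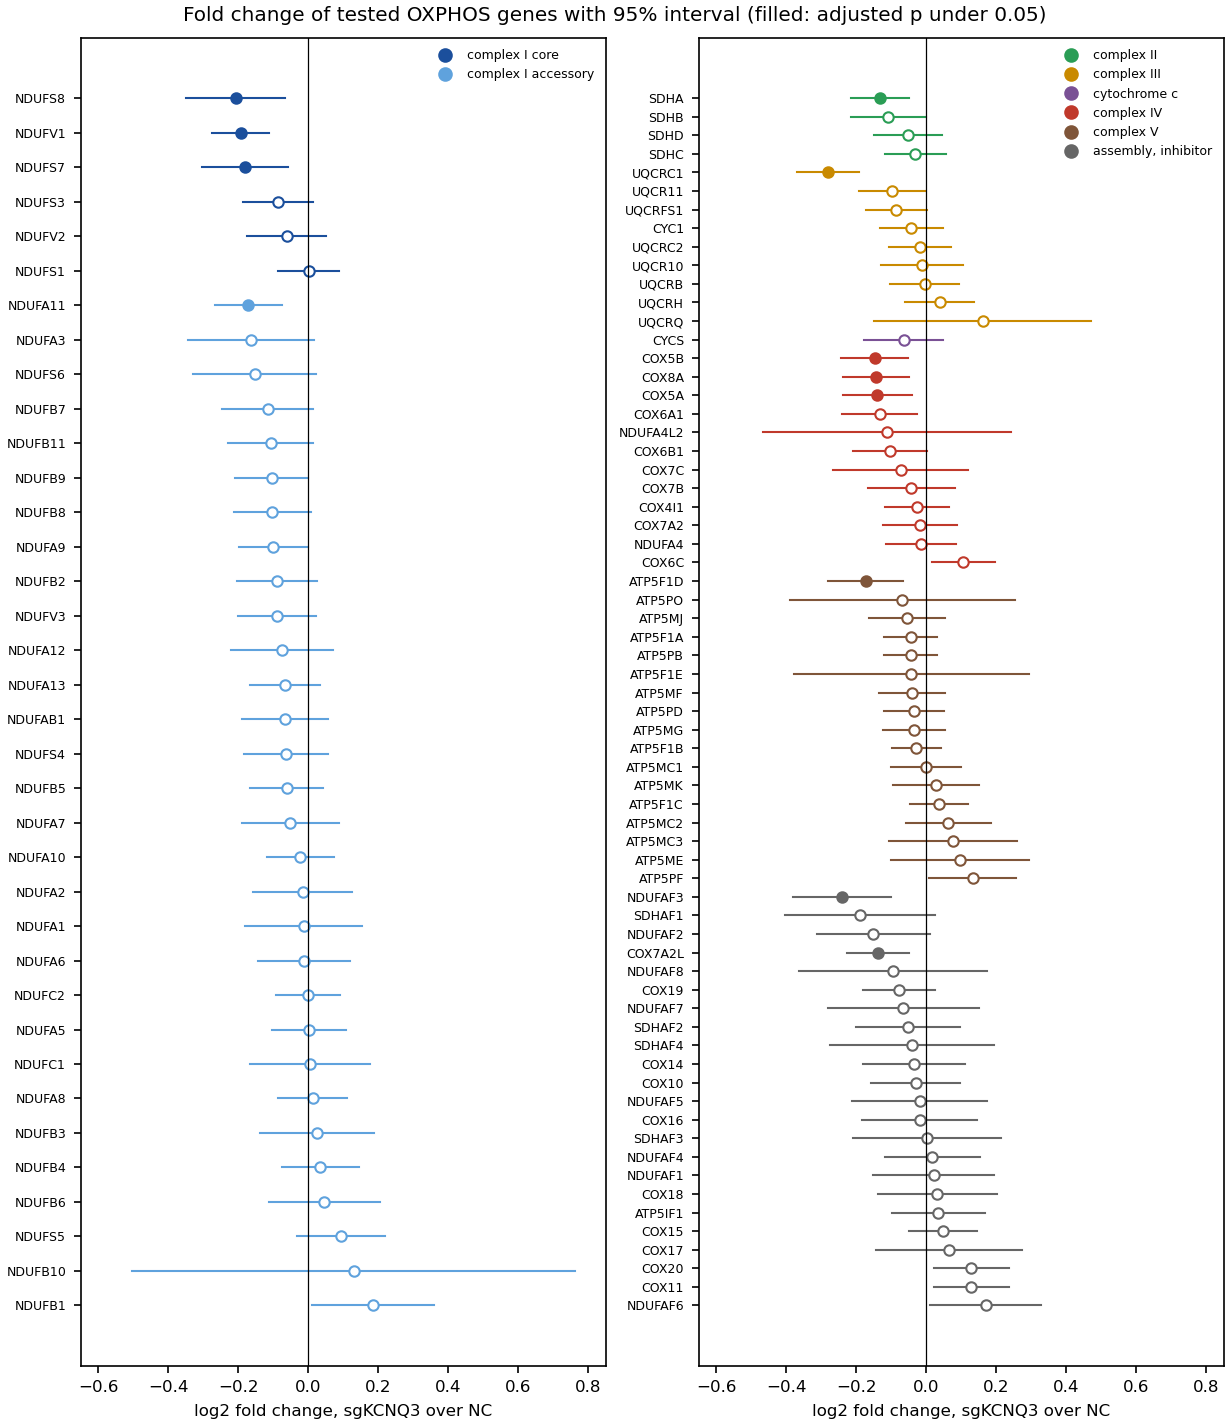
Log2 fold change of sgKCNQ3 over NC for tested genes (the readthrough NDUFC2-KCTD14 is not drawn), each with its 95% interval (lines), grouped by complex; filled circles have an adjusted p under 0.05. UQCRC1 lies farthest left at -0.28, all 12 filled circles lie left of zero, and most intervals stay within 0.25 of it.

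The 12 genes that fell were spread over all 5 complexes. They were NDUFV1, NDUFS7, NDUFS8 and NDUFA11 of complex I, SDHA of complex II, UQCRC1 of complex III, COX5A, COX5B and COX8A of complex IV, ATP5F1D of complex V, and the assembly factors NDUFAF3 and COX7A2L. Their falls ran from 0.13 (SDHA) to 0.28 (UQCRC1) on the log2 scale. Together they summed to 1540 ± 43.0 CPM in NC and 1365 ± 41.9 CPM in sgKCNQ3, a description only since they were picked by this test. In 9 of the 12 the groups did not overlap, which for the same reason is a description only. UQCRC1 held its call in all 11 other planned settings (scaling, test, filter, replicate block and trend corrections) and in all 6 runs with a library left out. NDUFV1 held in 10 of 11 and 6 of 6, losing it on log2(TPM + 1), and NDUFA11 in 9 of 11 and 5 of 6. COX5A, which held in 5 of 11 and 2 of 6, and NDUFS7, in 5 of 11 and 3 of 6, held least often.

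**Figure D3:**
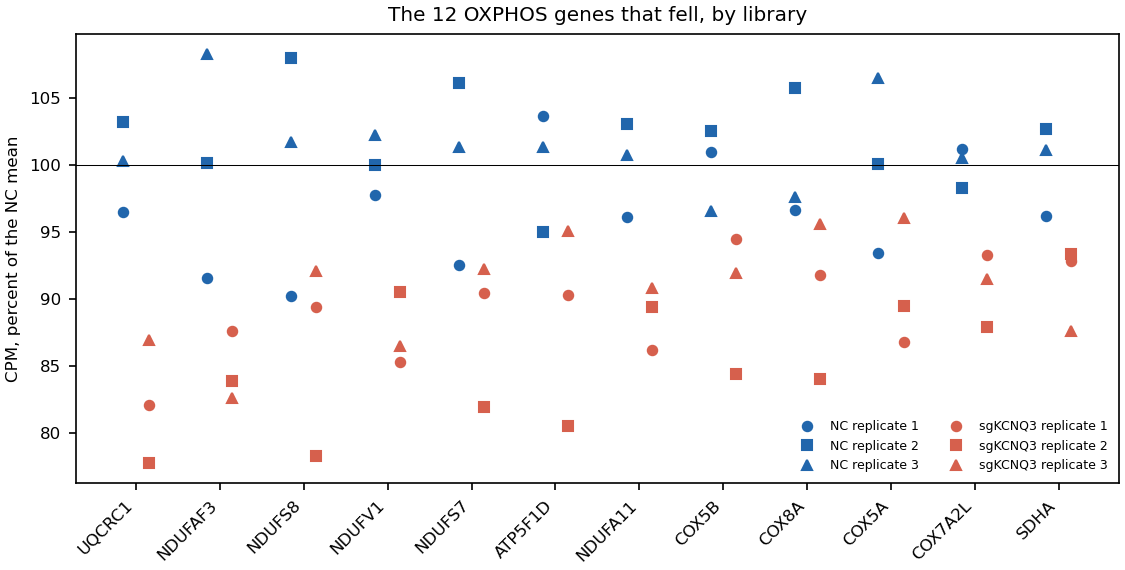
CPM of the 12 OXPHOS genes called lower, as percent of each gene's NC mean, by library (blue NC, red sgKCNQ3, shape the replicate number). The groups overlap for NDUFS8, ATP5F1D and COX5A and not for the other genes, and sgKCNQ3 replicate 2 is the lowest point for 7 of them.

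Complex I, the NADH dehydrogenase, had 37 tested subunits, of which 4 fell (10.8%, against 15.1% of all genes tested) and 0 rose (against 14.0%). Among the 7 nuclear core subunits, which carry the electron path from NADH to ubiquinone, 3 fell and their summed CPM went from 707 ± 10.9 in NC to 662 ± 4.60 in sgKCNQ3. NDUFV1 (chr11:67605653-67612554), the flavin subunit that takes electrons from NADH, had 172, 176 and 179 CPM in NC and 149.7, 159 and 152 in sgKCNQ3. All 3 sgKCNQ3 libraries lay below all NC libraries, and the fall was 0.19 on the log2 scale (SE 0.040, edgeR adjusted p = 0.00076). NDUFS8 (chr11:68030617-68036644), an iron-sulfur subunit near the ubiquinone site, had 78.3, 93.7 and 88.3 CPM in NC and 77.6, 67.9 and 79.9 in sgKCNQ3. Its groups overlapped, as sgKCNQ3 replicate 3 was above NC replicate 1, and the fall was 0.21 (SE 0.066, edgeR adjusted p = 0.027), a call lost without NC replicate 2, without NC replicate 3 or without sgKCNQ3 replicate 2. NDUFS7 (chr19:1383527-1395589), which carries the last iron-sulfur cluster before ubiquinone, had 49.7, 57.0 and 54.5 CPM in NC and 48.6, 44.0 and 49.6 in sgKCNQ3. The groups were apart only narrowly, at NC replicate 1 and sgKCNQ3 replicate 3, and the fall was 0.18 (SE 0.059, edgeR adjusted p = 0.024), a call lost without the same libraries.

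Among the core subunits that did not pass the test, NDUFS3 had a log2 fold change of -0.09 with groups that did not overlap, and NDUFV2 one of -0.06. NDUFS1 (chr2:206114817-206159603), the largest iron-sulfur subunit, had 157, 150 and 151 CPM in NC and 155, 158 and 145 in sgKCNQ3, a log2 fold change of 0.001 with a 95% interval of -0.09 to 0.09. NDUFS1 was thus level beside 3 core subunits that fell, a contrast that did not hold once length trends were removed (log2 fold change -0.15, edgeR adjusted p = 0.0091).

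The 30 accessory subunits of complex I, which surround the core and stabilise it, gave 1 call (3.33%, against 29.1% of all genes tested). NDUFA11 (chr19:5891276-5904006), a membrane arm subunit, had 78.6, 84.3 and 82.4 CPM in NC and 70.5, 73.1 and 74.3 in sgKCNQ3. The groups did not overlap, and the fall was 0.17 (SE 0.047, edgeR adjusted p = 0.0071), a call lost without sgKCNQ3 replicate 1. The other 29 ranged from -0.16 (NDUFA3) to 0.18 (NDUFB1) on the log2 scale. All 30 summed to 1847 ± 19.1 CPM in NC and 1788 ± 78.3 in sgKCNQ3. NDUFA9, an accessory subunit at the joint of the membrane and matrix arms, was at 108 ± 1.52 and 101 ± 7.70 CPM (log2 fold change -0.10, edgeR adjusted p = 0.13). Its counts were not whole numbers in 5 libraries, a sign of shared reads. NDUFB10 was the least precise, at 47.1, 34.7 and 52.3 CPM in NC and 55.9, 52.4 and 38.3 in sgKCNQ3, so its interval of -0.50 to 0.76 leaves its direction undetermined. NDUFC2, at 106 CPM in both groups, shares reads with the readthrough NDUFC2-KCTD14, which had at most 1.58 CPM in any library.

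Complex II, succinate dehydrogenase, also works in the citric acid cycle. Its 4 subunits all lay below zero (2 of them on log2(TPM + 1)), 1 of them called lower (25.0%, against 15.1% of all genes tested). Of all 12565 genes tested, 6475 lay below zero (4207 on log2(TPM + 1)). Together the 4 subunits summed to 455 ± 7.33 CPM in NC and 428 ± 12.5 in sgKCNQ3. SDHA (chr5:218241-256700), the flavin subunit that oxidises succinate, had 201, 214 and 211 CPM in NC and 194, 195 and 183 in sgKCNQ3. The groups did not overlap, and the fall was 0.13 (SE 0.040, edgeR adjusted p = 0.015). The call was lost without NC replicate 2, without NC replicate 3 and without sgKCNQ3 replicate 3, so it held in 3 of 6 such runs. SDHB, the iron-sulfur subunit, had groups that did not overlap either, at 52.7 ± 1.32 and 48.9 ± 1.67 CPM, but an edgeR adjusted p of 0.13. The membrane anchors SDHC and SDHD had log2 fold changes of -0.03 and -0.05. SDHA has pseudogenes of near-identical sequence, and the assignment of reads shared with them is not stated in what was used here. Its counts were whole numbers in every library, which does not tell how such reads were handled.

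Complex III passes electrons from ubiquinol to cytochrome c. Of its 9 tested subunits only UQCRC1 fell (11.1%, against 15.1% of all genes tested), and the others ranged from -0.10 (UQCR11) to 0.16 (UQCRQ). UQCRC1 (chr3:48599002-48610976), a core protein on the matrix side, had 184, 197 and 191 CPM in NC and 157, 148 and 166 in sgKCNQ3. The lowest NC library stood well above the highest sgKCNQ3 library, and the fall of 0.28 (SE 0.043, edgeR adjusted p = 2.8e-05) was the largest of any OXPHOS gene called. UQCRC2, the core protein that pairs with it, was at 159 ± 3.74 and 157 ± 8.74 CPM, a log2 fold change of -0.02 with an interval of -0.11 to 0.07. The intervals of these paired core proteins do not meet, although the difference between them was not tested. UQCRFS1, the Rieske iron-sulfur protein, and CYC1, cytochrome c1, are the electron carriers of the complex encoded in the nucleus, and had log2 fold changes of -0.08 and -0.04 without passing the test. UQCRH and its near-copy UQCRHL share reads, and their counts summed to 2051, 2038 and 1946 in the NC libraries and 2024, 2262 and 2006 in the others. CYCS, the soluble cytochrome c itself, was abundant by count, with 652, 581 and 656 CPM in NC and 598, 647 and 562 in sgKCNQ3, and the groups overlapped.

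Complex IV, cytochrome c oxidase, has its catalytic subunits in mitochondrial DNA, and the nuclear subunits measured here surround them. Of 12 tested, 3 fell (25.0%, against 15.1% of all genes tested), 0 rose (against 14.0%) and 11 lay below zero (7 on log2(TPM + 1)). Of all 12565 genes tested, 6475 lay below zero (4207 on log2(TPM + 1)). The complex IV subunits summed to 1713 ± 31.8 CPM in NC and 1626 ± 25.8 in sgKCNQ3. COX5B (chr2:97646040-97648383), a zinc-binding subunit on the matrix side, had 103, 104 and 98.1 CPM in NC and 96.0, 85.8 and 93.5 in sgKCNQ3. COX8A (chr11:63974607-63976543), a small membrane subunit, had 238, 260.5 and 240.4 CPM in NC and 226, 207 and 236 in sgKCNQ3. COX5A (chr15:74919791-74938168), which sits on the matrix face, had 135, 144 and 154 CPM in NC and 125, 129 and 139 in sgKCNQ3. Groups were apart for the first 2 and overlapped for COX5A, where sgKCNQ3 replicate 3 was above NC replicate 1. Their falls were 0.15, 0.14 and 0.14 on the log2 scale, with edgeR adjusted p of 0.020, 0.020 and 0.032. Without NC replicate 2 or without sgKCNQ3 replicate 2, 0 complex IV subunits were called, and DESeq2 called 1. COX5B also lost its call without NC replicate 1, COX8A without sgKCNQ3 replicate 1, and COX5A without NC replicate 3 or sgKCNQ3 replicate 1.

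COX4I1, a regulatory subunit, was level at 283 ± 0.88 and 278 ± 22.3 CPM. COX6C alone pointed up, with 109, 107 and 110 CPM in NC and 118, 122 and 111 in sgKCNQ3, groups that did not overlap, and an edgeR adjusted p of 0.072. NDUFA4, long listed with complex I and now placed in complex IV, made up 96.2% ± 0.17 of the TPM it shares with its relative NDUFA4L2 in NC and 96.2% ± 0.52 in sgKCNQ3. NDUFA4L2 is known as a hypoxia-induced gene and was low here, at 5.11 and 5.23 TPM. The testis-type isoform COX6B2 had at most 2 counts in a library and was not tested.

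Complex V, the ATP synthase, summed to 3328 ± 35.1 CPM in NC and 3281 ± 75.8 in sgKCNQ3, at -1.4% the smallest percent difference of the 5 complexes. Of 17 tested subunits 1 fell (5.88%, against 15.1% of all genes tested) and 0 rose (against 14.0%). ATP5F1B, the catalytic beta subunit, was the OXPHOS gene with the most counts, at 1099 ± 25.1 and 1077 ± 9.17 CPM, and its interval of -0.10 to 0.04 bounds any change closely. ATP5F1A, the alpha subunit, was at 424 ± 2.04 and 411 ± 14.2 CPM, and ATP5F1C, the gamma shaft, at 202 ± 8.24 and 208 ± 6.40. ATP5F1D (chr19:1241746-1244826), the delta subunit of the stalk, had 118, 108 and 115 CPM in NC and 102, 91.3 and 108 in sgKCNQ3. Its groups overlapped narrowly, at NC replicate 2 and sgKCNQ3 replicate 3, and the fall was 0.17 (SE 0.052, edgeR adjusted p = 0.015), a call lost without NC replicate 1, without NC replicate 3 or without sgKCNQ3 replicate 2. ATP5F1E, the epsilon subunit, varied widely in sgKCNQ3 (131, 150 and 109 CPM).

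The rotor ring of complex V is built from 1 protein encoded by 3 genes that differ in their import signals. ATP5MC1, ATP5MC2 and ATP5MC3 gave 36.4% ± 1.89, 56.6% ± 1.78 and 7.02% ± 0.12 of their summed TPM in NC. In sgKCNQ3 they gave 35.2% ± 1.84, 57.4% ± 1.54 and 7.42% ± 0.96. The differences were within the spread between libraries (exact permutation test, two-sided p = 0.6, 0.7 and 0.4, each 0.7 after adjustment over the 3, where 0.1 is the smallest the design allows). ATP5IF1, the inhibitor that stops the enzyme from running backwards, was at 41.5 ± 2.39 CPM in NC and 42.6 ± 3.92 in sgKCNQ3.

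Among the assembly factors and ATP5IF1, 2 of 23 fell (8.7%, against 15.1% of all genes tested) and 0 rose (against 14.0%). Their sums were 784 ± 13.4 CPM in NC and 775 ± 24.0 CPM in sgKCNQ3. NDUFAF3 (chr3:49020459-49023495), an early complex I assembly factor, had 28.7, 31.4 and 33.9 CPM in NC and 27.5, 26.3 and 25.9 in sgKCNQ3. The groups were apart and the fall was 0.24 (SE 0.068, edgeR adjusted p = 0.0098). The call was lost without NC replicate 3, on log2(TPM + 1) and with any of the trend removals described below. COX7A2L (chr2:42333546-42425088), named for a complex IV subunit but known for joining complexes III and IV into supercomplexes, had 106, 103 and 106 CPM in NC and 98.2, 92.5 and 96.2 in sgKCNQ3. These groups were also apart, and the fall was 0.14 (SE 0.043, edgeR adjusted p = 0.018). That call was lost with DESeq2, with library size alone, on log2(TPM + 1), and without NC replicate 1, NC replicate 3 or sgKCNQ3 replicate 2. Removal of the implied length trend, alone or together with GC, also lost it. The factors for complex IV as a set were level, at 484 ± 12 and 486 ± 11.3 CPM, and their largest fold changes upward were those of COX20 and COX11. COX20, a chaperone of the COX2 subunit, had 67.1, 61.8 and 70.4 CPM in NC and 69.6, 75.5 and 72.8 in sgKCNQ3 (edgeR adjusted p = 0.066). COX11, which delivers copper to complex IV, was at 61.4 ± 3.08 and 67.2 ± 3.12 CPM (edgeR adjusted p = 0.063).

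Base composition moved with these results. Across the 104 genes, Spearman's rho of the log2 fold change with the GC content of the longest coding transcript was -0.397, against -0.262 over all genes tested. Both are descriptions, since genes share the same 6 libraries. The 12 called genes had a median GC content of 59.5% and the other tested members 46.5%. The OXPHOS genes were also short, with a median implied length of 647 bases against 2878 for all genes tested, while rho with that length was 0.0523 among members and 0.341 over all genes. Each library's deviation from the gene mean correlated with length at -0.347 to -0.186 in NC and at 0.211 to 0.296 in sgKCNQ3. Its correlation with GC content was -0.027, 0.437 and 0.142 for the NC libraries, and it lay between -0.273 and -0.083 for the sgKCNQ3 libraries. NC replicate 2 thus stood apart from the other NC libraries in GC. Without it the 12 lower calls were 6, and without NC replicate 3 they were 5. Whether the GC content of a library bears on these losses was not tested.

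Most calls changed once such trends were taken out of each library. After removal of the trends over implied length and GC content together, 8 OXPHOS genes were lower and 5 higher. Of all genes tested 25.7% were called, 15.6% lower and 10% higher. Only UQCRC1 (-0.19, edgeR adjusted p = 0.00043) and SDHA (-0.10, edgeR adjusted p = 0.044) were called both ways. UQCRC1 kept its call in 6 of 6 runs with trends removed and a library left out, and SDHA in 1 of 6. SDHA also lost it with trends over annotated length and GC removed. NDUFV1 stood just outside, at -0.10 with an edgeR adjusted p of 0.051. The other 6 called lower were NDUFS1, NDUFA9, NDUFB5, NDUFV3, UQCRB and CYCS. NDUFS1 went from 0.001 to -0.17 (edgeR adjusted p = 0.0019) and NDUFA9 from -0.10 to -0.24 (edgeR adjusted p = 0.00027). All 6 have implied lengths of 3892 bases or more. The 5 called higher were COX6C (0.14), ATP5PF (0.18), COX20 (0.13), NDUFAF6 (0.20) and ATP5MC2 (0.14). Of these, COX6C had an edgeR adjusted p of 0.0074 and ATP5PF one of 0.012.

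Removal of the implied length trend alone gave 8 lower and 6 higher, where 23.7% of all genes tested were called (14.1% lower and 9.58% higher). Removal of trends over annotated transcript length and GC content gave 8 and 3, where 26.4% of all genes were called (15.9% and 10.5%). UQCRC1, NDUFA9 and NDUFS1 were lower, and COX6C, ATP5PF and COX20 higher, in all 3 corrections. ATP5PF, the coupling factor in the stalk of complex V, had 63.8, 63.3 and 63.5 CPM in NC and 65.8, 78.6 and 64.5 in sgKCNQ3. Its groups did not overlap, and replicate 2 carried most of the difference. NDUFAF6, a complex I assembly factor, had 16.1, 18.1 and 17.2 CPM in NC and 18.9, 20.3 and 18.6 in sgKCNQ3, also without overlap.

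Nuclear genes of the respiratory chain share regulators, among them NRF1 (nuclear respiratory factor 1), GABP and YY1, and letters typical of their sites were looked for on both strands of 300-base windows around RefSeq gene starts (GRCh38.p14). NRF1 was searched as GCGC, any base and TGCGC in a row, GABP as CCGGAAG, and YY1 as AA, any base, ATGG and CGGC in a row. Windows were given for 90 of the 107 genes. NRF1 letters stood in 21 of them (23.3%) against 13.2% of 10354 tested genes, GABP letters in 29 (32.2%) against 22.8%, and YY1 letters in 13 (14.4%) against 3.90%. Of the 11 called genes with a window, 3 held the NRF1 letters, 2 the GABP letters and 2 the YY1 letters. A match is a description of the letters and not of binding. The sites below are those of UQCRC1 and SDHA, the genes that fell both ways, read 5′ to 3′ on the gene's strand with the motif in capitals. Distances count from the RefSeq start, which is not the GENCODE 29 gene start used for the gene positions above. The GENCODE start lies 1330 bases upstream of it for UQCRC1 and 79 bases upstream for SDHA.
UQCRC1 NRF1 letters, chr3:48609674-48609703, minus strand, 47 bases before the RefSeq start: gtacggtactGCGCCTGCGCcgcgaccgcc
UQCRC1 YY1 letters, chr3:48609603-48609632, minus strand, 23 bases after the RefSeq start: tgcagctggAAGATGGCGGCgtccgtggtc
SDHA NRF1 letters, chr5:218144-218173, plus strand, 166 bases before the RefSeq start: ggtccgctttGCGCAGGCGCggcgccccca
SDHA NRF1 letters, chr5:218193-218222, plus strand, 117 bases before the RefSeq start: gtggcatggtGCGCAGGCGCgatgtccccc
SDHA NRF1 letters, chr5:218242-218271, plus strand, 68 bases before the RefSeq start: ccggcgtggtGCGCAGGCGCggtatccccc
SDHA NRF1 letters, chr5:218291-218320, plus strand, 19 bases before the RefSeq start: ccggtgtggtGCGCAGGCGCagtctgcgca
The 4 SDHA matches read the motif's other strand, carry the same 10 capitals and lie exactly 49 bases apart. By GENCODE 29 both UQCRC1 stretches overlap an exon of UQCRC1, the first pair of SDHA stretches an exon of the neighbouring CCDC127, and the second pair an exon of SDHA. COX20 and COX5B are shown for contrast. COX20 was called higher in some fits and COX5B lower in some, and the fit with upper quartile factors gave both calls. Both genes hold GABP letters before their RefSeq starts (for COX20, the most upstream of them).
COX20, chr1:244835056-244835305, plus strand: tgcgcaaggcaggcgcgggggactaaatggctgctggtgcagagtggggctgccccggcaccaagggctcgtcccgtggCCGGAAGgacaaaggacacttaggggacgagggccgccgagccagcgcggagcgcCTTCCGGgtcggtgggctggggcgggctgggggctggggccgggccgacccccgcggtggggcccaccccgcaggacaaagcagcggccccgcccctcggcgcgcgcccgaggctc
COX5B, chr2:97645812-97646039, plus strand: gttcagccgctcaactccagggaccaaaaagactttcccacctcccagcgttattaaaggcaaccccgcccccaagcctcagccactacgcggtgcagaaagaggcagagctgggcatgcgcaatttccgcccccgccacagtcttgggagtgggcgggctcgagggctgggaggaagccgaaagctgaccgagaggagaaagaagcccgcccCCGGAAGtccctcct
COX20 holds the GABP letters 2 times in this stretch, 1 per strand, and COX5B 1 time. The COX5B stretch stops 23 bases before its RefSeq start, while that of COX20 runs up to its start. A further COX5B match of the GABP letters begins 5 bases before the start, outside the stretch, so these counts are not from equal windows.

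Of 19 tested regulators of mitochondrial biogenesis, 2 fell and 4 rose, and this share called (31.6%) was near the 29.1% of all genes tested. PPARGC1B, a coactivator that drives respiratory genes, rose by 0.54 (5.93 ± 0.024 to 8.64 ± 0.70 CPM, edgeR adjusted p = 0.00072), and GABPA, the DNA-binding part of GABP, rose by 0.25 (38.9 ± 2.27 to 46.3 ± 1.21 CPM, edgeR adjusted p = 0.0018). NFE2L2 fell by 0.20 (edgeR adjusted p = 0.00019), and GABPB1, the partner of GABPA, fell by 0.19 (27.9 ± 0.85 to 24.4 ± 0.47 CPM, edgeR adjusted p = 0.028). Log2 fold changes of NRF1 (-0.12) and TFAM (0.08), which packages mitochondrial DNA and activates its transcription, did not pass.

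Among 40 further assembly factors 6 fell and 2 rose, a share of falls close to the 15.1% of all genes tested. TTC19 and UQCC1, both needed to build complex III, fell by 0.32 (96.1 ± 2.88 to 77.2 ± 1.54 CPM, edgeR adjusted p = 9.2e-06) and 0.26 (123 ± 2.31 to 102 ± 3.11 CPM, edgeR adjusted p = 4.4e-05). NUBPL, which delivers iron-sulfur clusters to complex I, rose by 0.29 (edgeR adjusted p = 0.0064). In the citric acid cycle 6 of 18 enzymes fell (33.3%) and 1 rose, led by IDH3B (-0.24) and MDH2 (-0.18), and of 21 carriers and electron feeders 4 fell (19.0%) and 0 rose, with VDAC2 at -0.16. For comparison, 12 of 78 mitochondrial ribosomal proteins fell (15.4%) and 1 rose (median -0.07). Of 88 cytosolic ribosomal proteins 25 fell (28.4%) and 0 rose (median -0.07). With implied length and GC trends removed, the mitochondrial ones gave 4 lower and 4 higher (median -0.02). The cytosolic ones gave 12 and 0 (median -0.04). Citric acid cycle enzymes then gave 6 and 2, and carriers and feeders 3 and 1. Further assembly factors gave 6 and 3, and biogenesis regulators 2 and 2. Of all genes tested 15.6% were then lower and 10% higher.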

How the data were processed

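Poly(A) RNA of 6 RBE libraries, grouped by their titles, was measured by the authors in 1 table. The authors deposited estimated counts (expected counts) per gene, and beside them TPM and FPKM values, per the file headers. Reads were placed on GRCh38.p13 according to the submitters' processing notes; no counter, strand setting or treatment of shared reads is stated there. The deposited group means, a signal column (counts over a factor per library) and a whole-number score, all the authors' values per the file headers, entered no test.

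Estimated counts were rounded and tested with edgeR 4.0.16 (R 4.3.3). Genes passing filterByExpr (minimum count 10, 12565 of 16200) were scaled with TMM and compared by robust quasi-likelihood F tests, with Benjamini-Hochberg adjustment over all tested genes and a threshold of 0.05. SE is the size of the log2 fold change over the root of F, and libraries of a group varied by a biological coefficient of 3.62%. On simulated counts (12514 genes, 50 changed at each size), 29, 42, 49 and 49 genes were recovered at log2 folds of 0.25, 0.5, 1 and 2, and 8 of 177 calls were false. The simulation gave all genes the same dispersion and held no trend over length or GC, so these rates need not hold for the real calls. An exact permutation test of 3 against 3 libraries cannot go below 0.1.

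Implied length is the ratio of deposited counts to FPKM; transcript length, GC content and gene positions came from GENCODE 29. Trends were removed per library with splines of 5 degrees of freedom entered as offsets. Non-whole counts, a sign of shared reads, occurred in 12 OXPHOS genes. Alternatives were other scaling (RLE, library size alone, upper quartile), DESeq2 1.42.0, limma 3.58.1 (voom, and trend on log2(TPM + 1)), no filter, at least 2 CPM in 3 libraries, a replicate block, the trend removals and each library left out. Removal of implied length and GC trends together was added after the data were seen. Genes were named if core or catalytic, if called (up to 4 per complex and direction, up to 3 in other lists), or if an isoform pair; others named were chosen after their values were seen. The OXPHOS members, the other lists and the tests were chosen with earlier results of these data known. The values of 1 gene of the set are not reported here, and neither it nor the readthrough NDUFC2-KCTD14 is drawn in the plot of fold changes by gene.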

Additional observations from a re-analysis of the deposited data

How the results depend on the processing

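Calls of OXPHOS genes rested on libraries and scale. The 12 lower became 4 with library size alone, 2 on log2(TPM + 1), 6 with the replicate block and implied length and GC trends removed, and 5 to 12 with a library left out (5 to 11 with trends removed). The 0 higher became 3 with upper quartile factors, 6 with library size alone, 1 with limma-voom, 4 on log2(TPM + 1), 1 with no filter, 6, 3 and 5 with trends removed over implied length, annotated length and GC, and implied length and GC, 6 when the block was added to the last, and 0 to 5 with a library left out (3 to 6 with trends removed). The replicate block alone gave 11 lower and 0 higher. Same-numbered libraries did not deviate together (correlations 0.014, -0.098 and 0.0078), so the numbers are not read as pairs.

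Complex I lower calls (4) became 2 with library size alone and 1 on log2(TPM + 1), and 2 to 6 with a library left out (2 to 4 with trends removed). Complex II (1) became 0 with library size alone, on log2(TPM + 1) and with the block and trends removed, and 0 to 1 with a library left out, with or without trends. Complex III (1) became 2 with no filter, with the implied length trend removed, and with implied length and GC removed with or without the block, was 1 in each planned run with a library left out, and was 2 to 3 in those with trends removed. Complex IV (3) became 1 with DESeq2 and 0 with library size alone, on log2(TPM + 1) and with any trend removed, the block included, and 0 to 3 with a library left out (0 to 2 with trends removed). Complex V (1) became 0 with library size alone, on log2(TPM + 1), with implied length removed, and with implied length and GC removed with or without the block, and 0 to 1 with a library left out (0 to 0 with trends removed). Assembly factors (2) became 1 with library size alone, DESeq2, implied length removed and annotated length and GC removed, 0 on log2(TPM + 1) and with implied length and GC removed with or without the block, and 0 to 3 with a library left out (0 to 2 with trends removed). The count of all genes called (3658) became 2402, 2428 and 2418 without NC replicates 1, 2 and 3 with trends removed, in a range of 2402 to 3275 over the 6 such runs. The cause of these shifts was not tested.

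NDUFS1 turned from 0.001 to -0.15 (implied length), -0.14 (annotated length and GC), -0.17 (implied length and GC), -0.17 (block added), and -0.19 to -0.13 with a library left out. The runs without NC replicates 1, 2 and 3 gave -0.15, -0.16 and -0.18, and those without sgKCNQ3 replicates 1, 2 and 3 gave -0.17, -0.19 and -0.13. NDUFA5 turned to -0.12 with annotated length and GC removed, where its annotated transcript of 5608 bases stands against an implied 2864. ATP5F1D turned to 0.017 and 0.0045 with trends removed and NC replicate 1 or sgKCNQ3 replicate 2 left out. Of 1200 comparisons for 48 named genes, 939 kept direction and side of the threshold or stayed uncalled, 152 lost the call, 96 gained one and 13 reversed.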
